A study of Gallus gallus with 30 samples.

Results

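A group of 41 transcripts was on in some of the 15 chicken embryos of the study and off in others, by the rule given below. Of these 41 transcripts, 28 divided the embryos in one and the same way. A transcript was taken as on in an embryo when it reached at least 1 TPM (a transcript's share of the library, corrected for length and scaled to a fixed total) in both otocysts and as off when it stayed under 0.3 TPM in both. It was kept when at least 13 of the 15 embryos could be decided, with at least 3 embryos on and 3 off, and when both states occurred within at least 3 of the 5 sets of embryos. Of 28756 transcripts, 41 (0.143%) met this rule, and of the 22324 that reached 1 TPM in any otocyst the share was 0.184%. The 41 were thus chosen by their TPM values in these same otocysts, and their separation into on and off is given below as a description and carries no test.

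The otocyst is the epithelial vesicle from which the inner ear forms, and each of the 30 libraries came from 1 otocyst of a White Leghorn embryo, 2 per embryo. In the pair of Notch GOF sets the right otic cup was electroporated in ovo with NICD1, the active intracellular part of NOTCH1, together with mRFP1, with collection 6 h later at E2.5 in one set and 24 h later at E3 in the other. The control EP set received mRFP1 alone and was collected at E3 after 24 h, and in these 3 sets the left, untransfected otocyst was the control. In the Notch LOF sets both otocysts of E2.5 embryos were dissected and cultured, the right with the γ-secretase inhibitor LY411575 at 10 µM and the left with DMSO, for 6 or 24 h. Each set held 3 embryos. Electroporation reaches only some of the cells, every treated otocyst was a right one, and 4 of the 6 inhibitor otocysts carry another last digit in the compound name of their labels, although the protocol names LY411575 alone. The labels give no sex for any embryo.

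In birds the female carries one Z and one W chromosome, whereas the male carries a pair of Z chromosomes. Genes on W are therefore present in females alone, and many of them have a related partner on Z. Dosage compensation of Z in birds is incomplete and varies from gene to gene, so that many Z genes are expressed at a higher level in males.

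Library totals ranged from 8749490 to 18224600 estimated counts. The otocysts of the on embryos had 9988760 to 15663700 (median 12657800), and those of the off embryos 8749490 to 18224600 (median 13591100). The defining otic markers SOX10, LMX1A, SOHO-1, DLX5 and FGF10 were present in every otocyst, and their summed level was 259 to 1129 TPM in the 8 otocysts of the on embryos and 226 to 1132 TPM in the other 22. The mesenchymal markers matched in the tables (ENG, NT5E and THY1) summed to 71.8 to 124 TPM and 66.1 to 112 TPM in the same 2 groups. In bulk libraries of this kind, fewer cells of a type and less RNA per cell cannot be told apart.

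The 28 transcripts that shared one division were on in embryos 19, 4, 3 and 34 and off in the other 11. Embryo 19 belonged to Notch GOF 24 h, embryo 4 to control EP, embryo 3 to Notch LOF 6 h and embryo 34 to Notch LOF 24 h, so that each of these sets held 1 on embryo and 2 off embryos. All 3 embryos of the Notch GOF 6 h set were off. Among the 408 decided calls of the 28 transcripts, 109 were on and 299 off, and 19 of the 28 could be decided in all 15 embryos. None of the 41 showed the mirrored pattern of on in these 11 embryos and off in these 4.

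**Figure D1:**
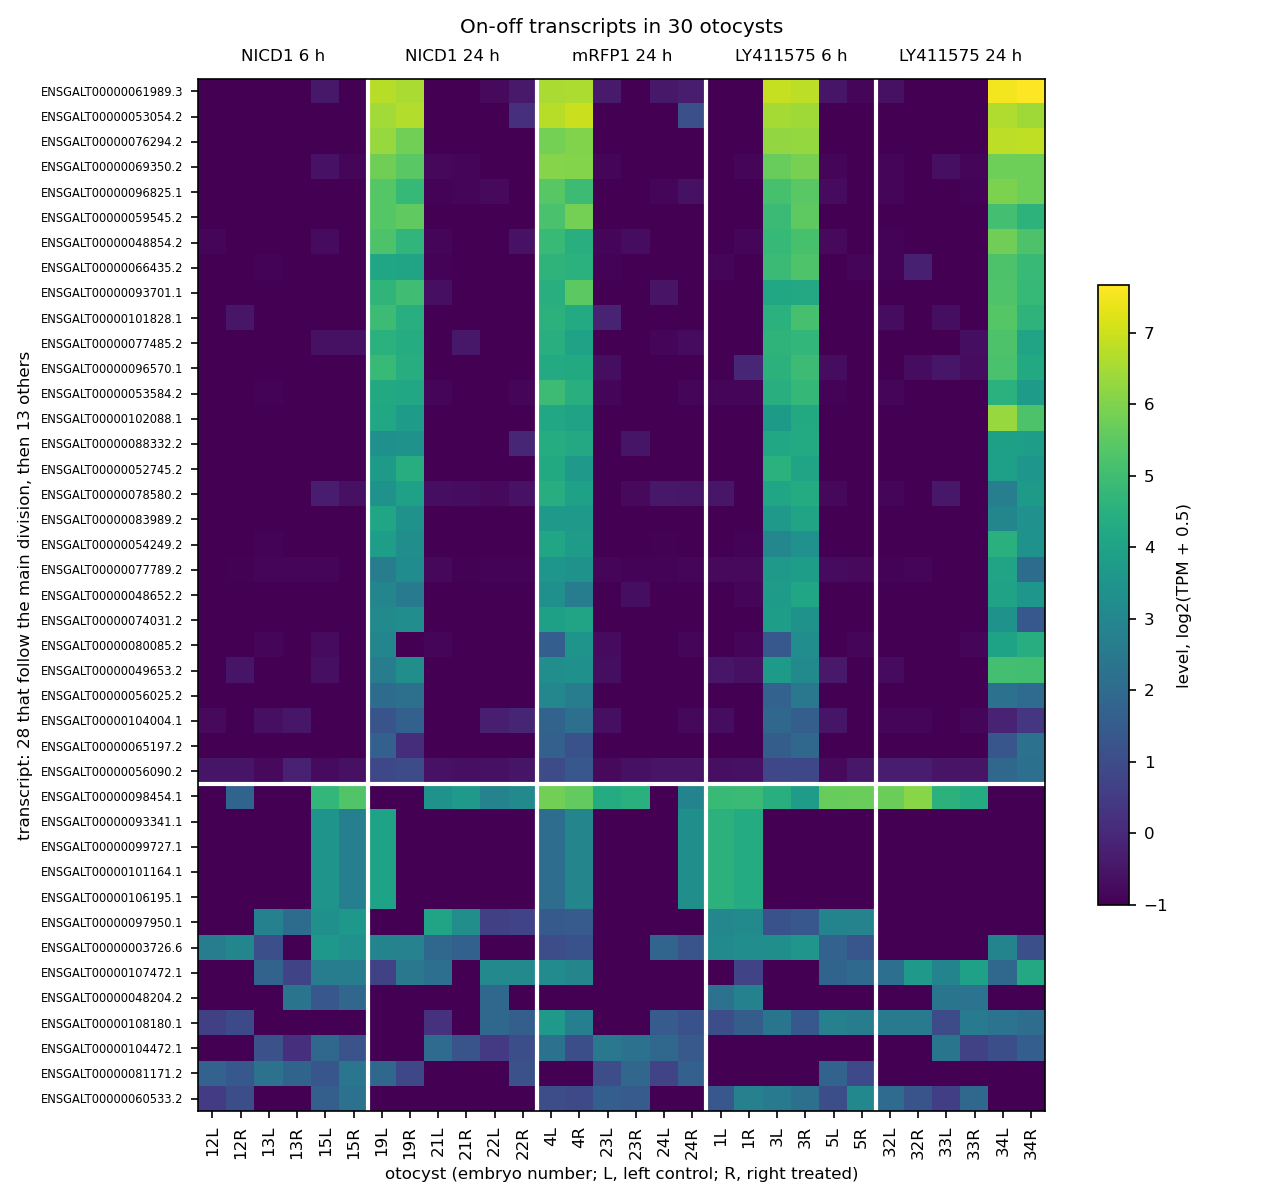
Level of each of the 41 on-off transcripts (rows) in each of the 30 otocysts (columns, labelled by embryo number and side), on a colour scale of log2(TPM + 0.5). The upper 28 rows are bright in both otocysts of embryos 19, 4, 3 and 34 and dark in the other embryos, whereas the lower 13 rows show a different set of embryos each, apart from 4 rows that are alike.

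None of the 41 identifiers is paired with a gene name or a chromosome in the tables used here. Their position on W, or on any other chromosome, was therefore not tested, and they are given by Ensembl transcript identifier.

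Added up, the 28 transcripts reached 640 to 1051 TPM in each of the 8 otocysts of the on embryos. In the 22 other otocysts their sum was between 0.330 and 2.85 TPM. As reads, this was 1046 to 1570 CPM (estimated counts scaled to the library total) in the on embryos and 0.468 to 4.77 CPM in the off embryos. The on otocyst lowest in TPM and CPM, the right one of embryo 19, had 13438 counts in the 28 transcripts. The left one of that embryo had the fewest counts of the on otocysts, 12817. The highest off otocyst, the right one of embryo 24, had 54.8 counts. The rule chose the 28 for this separation.

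**Figure D2:**
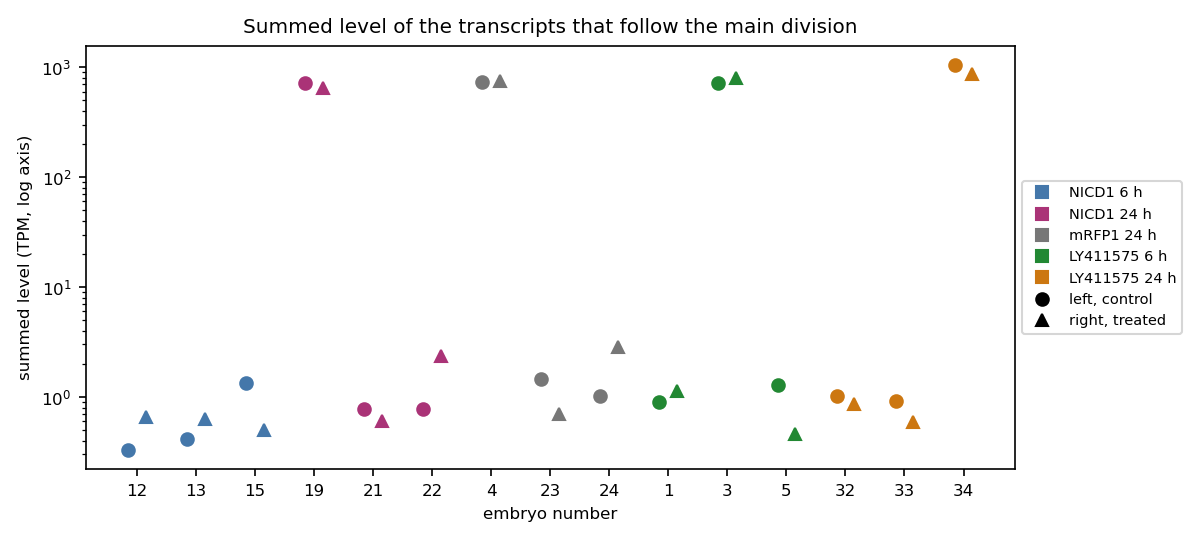
Summed level in TPM (log axis) of the 28 transcripts of the main division in each otocyst, by embryo; circles are left control otocysts, triangles right treated ones, and colours the 5 sets. Embryos 19, 4, 3 and 34 lie between 640 and 1051 TPM in both otocysts and all others between 0.330 and 2.85 TPM.

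ENSGALT00000061989.3 was the most abundant of the 28, with a median of 108 TPM over its on otocysts. It stood at 105 TPM in the left and 94.6 TPM in the right otocyst of embryo 19, at 93.5 and 95.7 TPM in embryo 4, at 120 and 111 TPM in embryo 3, and at 183 and 202 TPM in embryo 34. In the other 22 otocysts it did not exceed 0.289 TPM, and it was at 0 in 13 of them. Both otocysts of embryo 34 were above all others, and no off otocyst came near the on range.

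ENSGALT00000053054.2 came next, at 87.2 and 101 TPM in embryo 19, 106 and 124 TPM in embryo 4, 90.1 and 85.8 TPM in embryo 3, and 97.8 and 85.3 TPM in embryo 34. It stood at 1.68 TPM in the right otocyst of embryo 24 and at 0.621 TPM in that of embryo 22, with 0 in their left otocysts, so that these 2 embryos were undecided. In the 18 otocysts of the 9 off embryos it was at 0.

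ENSGALT00000076294.2 had the cleanest separation among the most abundant members. Its 8 on otocysts held 79.3 and 55.4 TPM (embryo 19), 57.8 and 65.04 TPM (embryo 4), 75.2 and 76.96 TPM (embryo 3) and 110 and 114 TPM (embryo 34). These values rested on 12325 estimated counts in all, against 0 counts in all 22 off otocysts. In 8 of the 28 transcripts no off otocyst had a count.

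The other 3 among the 6 most abundant were ENSGALT00000069350.2, ENSGALT00000096825.1 and ENSGALT00000059545.2, with medians of 53.7, 41.8 and 38.1 TPM over their on otocysts. ENSGALT00000069350.2 was the steadiest of these, between 43.3 and 67.1 TPM in the on otocysts. Their highest off values were 0.171, 0.150 and 0.000266 TPM. In all 3 the on and off otocysts were far apart.

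Over the 28 transcripts, the median level in the on otocysts ranged from 1.48 to 108 TPM, and 22 of them reached at least 10 TPM. Of the 598 off otocyst values, 448 (74.9%) were exactly 0. The member nearest to the on threshold was ENSGALT00000056090.2, whose lowest on otocyst held 1.29 TPM. It was also the one member of this group with counts in all 30 otocysts. The member nearest to the off threshold was ENSGALT00000078580.2, whose highest off otocyst held 0.292 TPM, against 6.07 TPM in its lowest on otocyst. Over all 41, the lowest on value was 1.04 TPM, for ENSGALT00000060533.2, which lay outside the main division.

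With the minimum lowered to 12 decided embryos, 17 more transcripts passed the rule, and only 2 of them followed the division. These 2, ENSGALT00000058877.2 and ENSGALT00000070852.3, were on in the same 4 embryos and were decided in 12 embryos, 1 too few. Another pair, ENSGALT00000044221.3 and ENSGALT00000083252.2, was decided in 13 embryos and followed the division but was on in only 2 embryos. These 4 were picked because no decided embryo went against the division, so their agreement with it is description only.

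The 12 undecided calls among the 28 transcripts were spread over 9 transcripts, and in 9 of the 12 both otocysts were under 1 TPM. ENSGALT00000065197.2 was at 2.68 TPM in the left and 0.607 TPM in the right otocyst of embryo 19. The widest gap was that of ENSGALT00000080085.2 in embryo 19, at 7.36 TPM in the left otocyst and 0.000639 TPM in the right one, which received NICD1. In the other on embryos the same transcript stood at 2.52 and 10.6 TPM (embryo 4), 2.09 and 9.05 TPM (embryo 3) and 15.8 and 20.5 TPM (embryo 34). The left otocyst was the lower one in these 3 embryos and the higher one in embryo 19.

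An on call required at least 1 TPM in both otocysts, which favoured levels that were alike between left and right. Of the 109 on calls, 99 were within 2-fold between left and right, and 7 of the 10 that were further apart fell in embryo 34. The share of all transcripts within 2-fold was not counted, so the 99 are description only. The median log2 ratio of right over left was 0.28 in embryo 3, -0.09 in embryo 4, -0.05 in embryo 19 and -0.36 in embryo 34. Of the transcripts that were on, 22 of 28 were higher in the right otocyst of embryo 3, whereas 18 of 28 in embryo 4, 14 of 26 in embryo 19 and 19 of 27 in embryo 34 were lower there. The right otocysts of embryos 3 and 34 were both cultured with LY411575, for 6 h and 24 h, and these 2 embryos leaned opposite ways. Each of these counts rests on a single pair of otocysts, without the same count over all transcripts, and an effect of the inhibitor was not tested by them. The right otocyst of embryo 34 had the smallest library among the on embryos, at 9988760 estimated counts. It also had the fewest detected transcripts of all otocysts, at 19055. The widest gap in embryo 34 was that of ENSGALT00000074031.2, at 10.5 TPM in the left and 2.12 TPM in the right otocyst, while it stood between 8.31 and 16.2 TPM in the otocysts of the other on embryos.

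**Figure D3:**
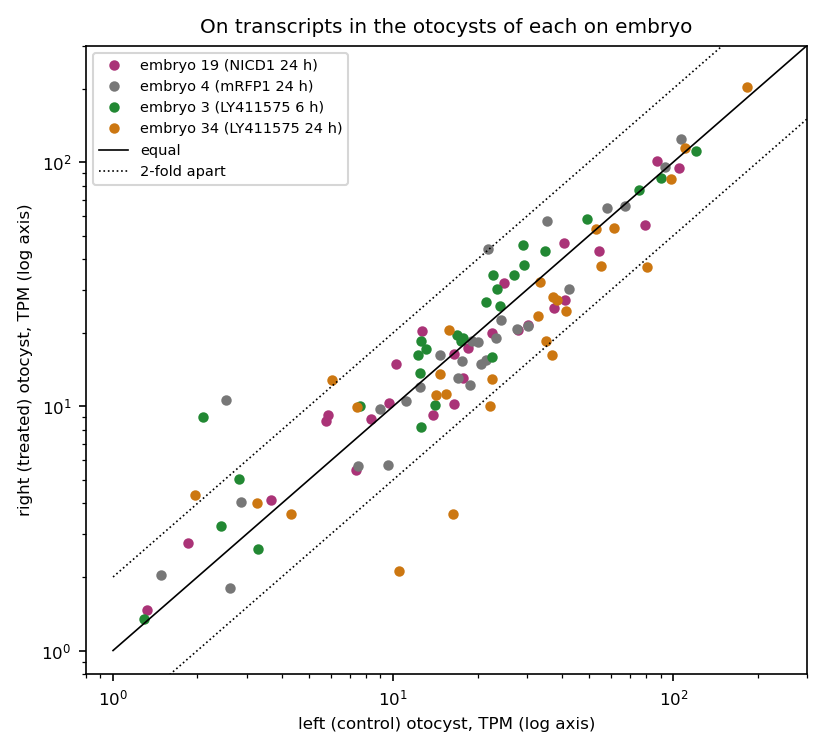
Level in the right (treated) against the left (control) otocyst, in TPM on log axes, for each of the 28 transcripts in each embryo in which it was on; colours mark the 4 on embryos, the solid line equality and the dotted lines a 2-fold difference. Of 109 points, 99 lie between the dotted lines.

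Between the 4 on embryos, 18 of the 25 transcripts on in all of them differed by no more than 2-fold. The ratio of the highest to the lowest embryo had a median of 1.82, and ran from 1.31 for ENSGALT00000053054.2 to 4.36 for ENSGALT00000049653.2. The latter was at 32.9 TPM in embryo 34 and at 7.54, 9.37 and 10.4 TPM in embryos 19, 4 and 3. ENSGALT00000102088.1 was likewise highest in embryo 34, at 58.8 TPM against 15.4, 16.4 and 15.6 TPM. Embryo 34 had the highest level in 11 of the 25 transcripts, embryo 4 in 8, embryo 3 in 6 and embryo 19 in 0. Embryos, sets, stage and culture differ together here and cannot be told apart.

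The remaining 13 transcripts did not share the division, nor any other one. Between 3 and 9 of their 13 to 15 decided embryos were in the state of the main division. The transcripts ENSGALT00000093341.1, ENSGALT00000099727.1, ENSGALT00000101164.1 and ENSGALT00000106195.1 are 162 bases long and had the same value in every otocyst, so that they count as 1 measurement. This left 10 that differed, and in none of their 45 pairs did both have the same state, or the opposite one, in every embryo that both decided. Their median level in the on state was 2.55 to 24.8 TPM, with a median of 6.23 TPM over the 13 against 16.9 TPM over the 28.

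ENSGALT00000098454.1 was the most abundant of the 13 and was on in 10 embryos. It stood at 6.77 to 69.4 TPM in their otocysts, and did not exceed 1.64e-06 TPM in both otocysts of embryos 13, 19 and 34. In embryos 12 and 24 the left otocyst was at 0 and the right one at 2.94 and 6.96 TPM. Of the main division's on embryos, 2 were thus on and 2 off for it.

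ENSGALT00000097950.1 was the one member of the 13 that was decided in all 15 embryos. It was on in 8 embryos, at 1.07 to 16.0 TPM, and at 0 in all 14 otocysts of the other 7, among them all 3 embryos of the Notch LOF 24 h set. ENSGALT00000003726.6, of 6681 bases, was on in 10 embryos at 1.58 to 11.8 TPM and did not exceed 0.000642 TPM in its 4 off embryos. ENSGALT00000107472.1 was on in 9 embryos at 1.11 to 18.3 TPM. All 13 had fractional counts and under 1 estimated count over all their off otocysts together. Fractional counts arise in kallisto where reads are divided among transcripts that share sequence. Only 1 of the 28 transcripts of the main division, ENSGALT00000088332.2, had whole counts (within 1e-06) in every otocyst, so that reads shared with other transcripts enter 40 of the 41 levels.

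The division was also read in otocysts that had no part in choosing the transcripts. With the rule applied to the left, control otocysts alone, 929 transcripts passed, and 37 of them followed a division, which was the same one of 4 and 11 embryos. For these 37, the right otocyst of the same embryo was in the same state in 508 of 538 calls (94.4%, 95% Wilson interval 92.2 to 96.1), in the opposite state in 9 and between the thresholds in 21. For the other 892 transcripts chosen in the left otocysts, the right one was in the same state in 57.1% of 12668 calls (56.2 to 57.9) and in the opposite state in 34.9%. The left and right otocysts share an embryo, and the calls of one embryo are not independent, so that the intervals cover counting error only. The 37 and the 892 were not matched for level or for their share of off calls. The gap between 94.4% and 57.1% is therefore description only.

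The effect of the treatments on the 41 transcripts was fitted across all transcripts, with the embryo as a block (edgeR quasi-likelihood test, Benjamini-Hochberg adjustment over 21637 transcripts). Of the 41, 36 passed the filter on low counts, the 28 of the main division and 8 others. The rule required both otocysts of an embryo to be in one state and so favoured transcripts with little difference between right and left. For the 28, moreover, no set held more than 1 on embryo. The counts below therefore cannot show whether these transcripts respond to treatment, and no conclusion is drawn from their distance to the background. None of the 36 was called in either Notch GOF set or in control EP, where 0% of all transcripts was called. None was called in Notch LOF 6 h, against 0.0786% of all transcripts, and none in Notch LOF 24 h, against 3.4%. The same held for the difference between the Notch LOF time points (0.111% of all) and between Notch GOF 24 h and control EP (0.00462% of all). The shares for Notch LOF 24 h were unstable, at 0.477% of all transcripts without embryo 32, 1.53% without embryo 34 and 8.02% without embryo 33. DESeq2, on the same 21637 transcripts, also called 0 of the 36 in each of the 7 comparisons. Its share of all transcripts was 0.555% in Notch GOF 6 h, 0.374% in Notch GOF 24 h, 1.73% in control EP, 0.536% and 11.9% in Notch LOF at 6 and 24 h, and 3.67% and 0.148% for the differences within LOF and between GOF and control EP. At an unadjusted p below 0.05 in edgeR there was 1 of the 36 in Notch GOF 24 h, against 2.67% of all transcripts, and 1 in its difference from control EP, against 2.27%, so that 1 of 36 is close to the background. There were 0 in the other 5 comparisons, where the shares over all were 3.95% in Notch GOF 6 h, 9.44% in control EP, 2.66% and 17.6% in Notch LOF at 6 and 24 h, and 10.9% for the difference within LOF.

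That one was ENSGALT00000080085.2. Its log2 fold change in Notch GOF 24 h was -8.36, at an adjusted p of 1 in edgeR. The SE for this transcript, worked back from the F statistic, was 2.08. Only embryo 19 of this set expressed it, so the estimate rests on the 1 pair of otocysts given above. For the 28 transcripts no set held more than 1 on embryo, and Notch GOF 6 h held 0. The median log2 fold change of the 28 was 0.14 in Notch GOF 24 h, 0.06 in control EP, 0.09 with the inhibitor for 6 h and -0.20 with it for 24 h, where the medians over all transcripts tested were -0.02, -0.04, 0 and -0.03.

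Transcripts outside the rule were then compared with the division by Pearson's r, over the 15 embryos, between their level and the mean level of the 28, both as log2(TPM + 0.5). The embryos form 2 separate clusters for the 28 transcripts, so r serves as a measure of likeness only and is given with no p. The 3 embryos of a set also share a treatment and a time, and all transcripts were measured in the same libraries. Among 11441 transcripts with a median of at least 5 TPM that were not among the 41, r had a median of -0.06, and 58.0% were below 0. Values above 0.9 were found for 1 transcript and values below -0.9 for 50. Without the minimum level, 26 transcripts outside the 41 were above 0.9. A transcript that is off in most embryos can hardly reach a median of 5 TPM, so the 2 counts cannot be compared.

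Among the transcripts with this minimum level, ENSGALT00000054516.2 (r = 0.99), of 1984 bases, was most like the 28. It was at 173, 171, 143 and 170 TPM in embryos 19, 4, 3 and 34 and at 3.42 to 8.53 TPM in the other 11, so that the groups did not overlap, but a low level kept it from being called off. The next, ENSGALT00000070737.2 (r = 0.87), stood at 13.3 to 23.1 TPM in the 4 embryos and at 4.29 to 10.2 TPM in the others. Both transcripts were chosen by r, which favours such a gap, so the gaps are description only.

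The 50 transcripts with r below -0.9 were, in all 4 sets that held an on embryo, lowest in that embryo. Their level in the on embryo, divided by the median of its 2 set mates, had a median of 0.537 over the 50, and 47 of the 50 lay between 0.4 and 0.65. These 50 belong to the 424 transcripts that were lowest in the on embryo in all 4 sets. Of the 424, 242 lay in the same band. The share of all transcripts in it was not counted, so the 47 are description only. The most opposed was ENSGALT00000045264.3 (r = -0.99), at 1069 to 1212 TPM in the 4 on embryos and 2095 to 2510 TPM in the others. ENSGALT00000052913.2 (r = -0.98) was at 538 to 596 TPM and 922 to 1183 TPM. In neither did the 2 ranges overlap. The choice by r favours both this and the lowest place in the on embryo, so both are description only.

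ENSGALT00000089227.2 stood apart from the other 49 and was singled out after its values were seen. It was at 32.2 to 45.1 TPM in the 11 off embryos. In the on embryos it held 3.39, 0.740, 0 and 4.56 TPM (embryos 19, 4, 3 and 34), and in the right otocysts of embryos 19 and 4 it was at 0. It was thus lower where the 28 transcripts were on, but not a full reverse of them. By the thresholds of the rule it was off in embryo 3 alone. Embryo 34 was on for it, at 4.36 and 4.76 TPM, and embryos 19 and 4 were undecided.

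Gene names and chromosomes could be set beside the division for the few transcripts that the study's tables of treatment-changed genes pair with a symbol. Of 809 such transcripts, 783 had a symbol that the GRCg7b RefSeq annotation places on a single chromosome. With a median of at least 5 TPM, 33 of these, from 31 genes, were on Z and 646 on other chromosomes. None of the 783 was on W. Since these names come from genes reported to change with treatment, they are no even sample of the chromosome.

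The named Z transcripts were mostly lower in the on embryos. Their r had a median of -0.31, against 0.00286 for the named transcripts on other chromosomes and -0.06 for all. In 15 of the 33 (45.5%) the on embryo was the lowest of its set in all 4 sets, against 1.55% of the named transcripts on other chromosomes and 3.71% of all 11441. None of the 33 was highest in the on embryo in all 4 sets. The shares were 2.79% of the named transcripts on other chromosomes and 2.26% of all, so that 0 of 33 is close to the background. The median over the 33 of the level in the on embryo, relative to its set mates, was 0.645 in Notch GOF 24 h, 0.819 in control EP, 0.721 for the inhibitor at 6 h and 0.689 for it at 24 h. For all transcripts the same medians were 0.935, 0.962, 0.985 and 1.04. This comparison by set was added after the data had been seen and is a description.

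RPS23, a protein of the small ribosomal subunit, was the most opposed of them (r = -0.91). It stood at 943, 1060, 961 and 583 TPM in embryos 19, 4, 3 and 34 and at 1400 to 1979 TPM in the other 11, without overlap. RGP1, a subunit of an exchange factor for the Golgi GTPase RAB6, was at 21.7 to 43.6 TPM and 50.1 to 81.8 TPM (r = -0.85), again without overlap. UTP15, which takes part in the processing of ribosomal RNA, was at 72.3 to 152 TPM and 124 to 256 TPM (r = -0.75), and the ranges overlapped. How many of all transcripts lack overlap between the on and off embryos was not counted, so its absence here is description only.

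CKS2, a partner of cyclin-dependent kinases, was in the on embryos 0.516, 0.397, 0.495 and 0.348 times the median of its set mates, in the order Notch GOF 24 h, control EP, the inhibitor for 6 h and 24 h. CENPH, a kinetochore protein, had ratios of 0.647, 0.501, 0.651 and 0.466. GADD45G, a stress-response gene linked to growth arrest, had ratios of 0.538, 0.428, 0.391 and 0.495 in the more abundant of its 2 transcripts. In CKS2 and CENPH the on and off ranges over all sets overlapped widely. Both also differed between sets, and the order appeared within a set.

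GRHPR, an enzyme of glyoxylate metabolism (r = -0.73), was also lowest in the on embryo in all 4 sets, at a median ratio of 0.592. Its levels in the 4 embryos (19.2 to 28.8 TPM) and the other 11 (29.2 to 52.5 TPM) did not overlap but nearly met. The cholesterol carrier STARD4 (median ratio 0.554) and FGF10 (0.705), a growth factor of the otic epithelium that is also among the otic markers above, were lowest in the on embryo in all 4 sets as well. FGF10 ranged from 6.47 to 63.4 TPM in the on embryos and from 6.54 to 131 TPM in the others, with almost complete overlap.

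Not every named Z transcript was lower. RPL37, a protein of the large ribosomal subunit, was at 679 to 1021 TPM in the on embryos and 778 to 1009 TPM in the others (r = -0.18), with a median ratio of 1.00. MLLT3, a part of a transcription elongation complex (r = 0.17), had a median ratio of 1.19, with the on embryo highest in 2 sets and lowest in the other 2.

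**Figure D4:**
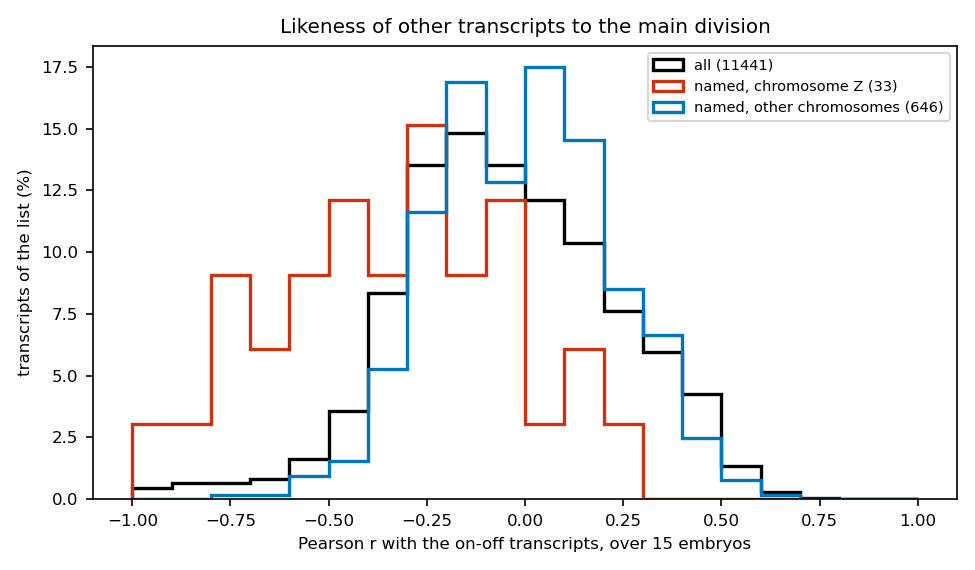
Share of transcripts (%) by Pearson r with the mean level of the 28 transcripts over 15 embryos, in bins of 0.1, for all 11441 transcripts with a median of at least 5 TPM and for the named transcripts on chromosome Z (33) and on other chromosomes (646). The Z transcripts lie mostly below 0, with a median of -0.31.

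**Figure D5:**
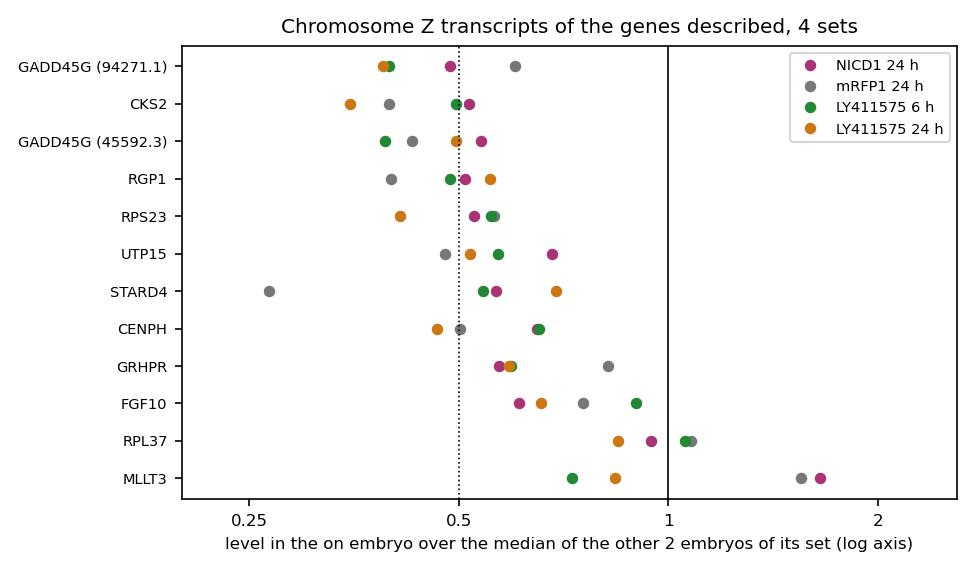
Level of the chromosome Z transcripts of the genes described in the text, in the on embryo divided by the median of the other 2 embryos of its set (log axis), with 1 point for each of the 4 sets that held an on embryo; the solid line marks 1 and the dotted line 0.5. CKS2, RGP1 and RPS23 lie between 0.348 and 0.561 in all 4 sets, and RPL37 between 0.846 and 1.08.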

How the data were processed

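The authors quantified paired-end reads with kallisto (version not given in the sources used here) against GRCg6a and deposited 1 table per otocyst, with estimated counts and TPM per transcript. The SMART-Seq kit marks no strand, so reads of antisense partners cannot be told apart. Left and right otocysts of an embryo were paired by the labels. Their deviations from the group means correlated within embryos at a median r of 0.27 (0.04 to 0.63, over 0.1 in 13 of 15 embryos, across 11442 transcripts). In embryo 21 alone, the left otocyst correlated more with the right one of another embryo of its set (0.13) than with its own (0.06). Estimated counts were rounded and tested with edgeR 4.0.16 in R 4.3.3, with TMM scaling, filterByExpr at a minimum count of 10, an embryo term and 5 treatment terms, at an adjusted p of 0.05. DESeq2 1.42.0 was an alternative. The scripts were tested on simulated data. The members and lists were chosen with earlier results of these data known. Transcripts were named by rule: the 6 most abundant of the main division, up to 4 outside it, those nearest the thresholds, and the extremes of r, beside those singled out in the text for their spread. Symbols came from the study's tables, chromosomes from the GRCg7b RefSeq table, whose coordinates were not used. The mesenchymal markers were matched without version numbers, 3 of 6 identifiers being found. The p-values compare 3 embryos per set. Some items withheld from this text are not reported here.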

Additional observations from a re-analysis of the deposited data

How the results depend on the processing

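The same 4 embryos were on under each of the 12 other settings of the rule, and 19 to 37 transcripts followed the division (28 as reported). The number of on-off transcripts moved by over 1.5 times in 4 settings. It was 20 with all 15 embryos decided, 25 with both states in at least 4 sets, 929 from the left otocysts alone and 1052 from the right ones alone. It was 46 when each state had to occur in 3 sets but not in the same ones, a reading of the rule added after the data were seen. Each embryo was also left out in turn, with the minimum lowered to 12 decided embryos. This gave 32 to 46 on-off transcripts, 25 to 30 that followed the division and 3 to 4 on embryos. The median r of the named Z transcripts was then -0.34 to -0.29. Chosen in the right otocysts and read in the left, 95.5% of calls in those following the division were in the same state, and 58.8% of all calls. The number of named Z transcripts lowest in the on embryo in 4 sets was 11, 12 and 14 for the left otocysts, the right otocysts and TMM-scaled CPM, all 3 added after the data were seen. Without the embryo as a block (no replicate block) 0 on-off transcripts were called in each of the 7 comparisons, as with it, while the calls over all transcripts in Notch LOF 24 h went from 736 to 308. The count of on-off transcripts was 0 under the other settings of the fit too, but on very different backgrounds. In Notch LOF 24 h the calls over all transcripts were 562 to 838 under other scalings and filters, 106 to 1780 with an embryo of the set left out and 2583 with DESeq2. In Notch LOF 6 h they were 9 to 17 in the edgeR fits over all sets, the lowest without embryo 5, and 116 with DESeq2. For the difference between these times they were 8 to 578 with an embryo left out, the highest without embryo 33. Fitted on the embryos of each set alone, edgeR called 0 of all transcripts in all 5 sets and tested only 5 to 7 of the 41.

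Each set held at most 1 on embryo, and Notch GOF 6 h none, so that the treatment comparisons of these transcripts have no replicate in the on state. Levels near the thresholds rest on few counts, and transcripts under 1 TPM in the on state lie outside the rule.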
